A study of Mus musculus with 4 samples.

Results

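NF-kB is a family of transcription factors whose dimers are kept inactive by inhibitor proteins and released by inflammatory signals. The expression of 10 NF-kB genes was compared between control chondrocytes and chondrocytes targeted for deletion of Senp6, the gene of the desumoylase SENP6. The genes were chosen by name and comprise 4 subunits (Nfkb1, Nfkb2, Rela and Relb), 4 inhibitors (Nfkbia, Nfkbib, Nfkbie and Tnfaip3) and 2 adhesion targets (Icam1 and Vcam1). All 10 were found by their symbols among the 18298 genes with a read, and each was read in all 4 samples. The mutant group was Dermo1-Cre;Senp6f/f (n = 2) and the control group was Senp6f/f without Cre (n = 2). Both groups carried the floxed Senp6 alleles on a C57BL/6 background. Dermo1-Cre expresses the recombinase from the Twist2 (Dermo1) locus in mesenchymal progenitors of bone and cartilage, so cells of other lineages in a culture keep Senp6. The cells were primary chondrocytes of the rib cartilage of E18.5 embryos, cultured to passage 1. Whether a culture came from 1 embryo or from several is not stated, so the p values measure only the spread between these samples.

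In resting cells the NF-kB dimers are bound by IkB proteins in the cytoplasm. Receptors for TNF, IL-1 and bacterial products activate the IKK kinase complex, which marks IkB proteins for degradation, and the freed dimers bind kB sites in the DNA of their target genes. Among these targets are the genes of the inhibitors themselves, which closes a negative feedback loop, and the genes of adhesion molecules that bind leukocyte integrins. In cartilage the pathway is known for inducing inflammatory mediators and matrix-degrading enzymes. SENP6 removes SUMO chains from proteins, and the IKK subunit NEMO is one of its known substrates.

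Between 21.02 M and 30.99 M reads (M, mega) were counted on genes in a sample, and expression is given as RPKM, the reads per kilobase of gene length and per M counted reads. The read counts entered edgeR's quasi-likelihood test, which covered the 14123 genes that reached 10 counts in 2 or more samples, and p values were adjusted by Benjamini-Hochberg over that whole set. In that test 0 genes had an adjusted p under 0.05, while 2199 (15.6%) had an unadjusted p under 0.05 (9.29% higher and 6.28% lower in the mutant). DESeq2, run as an alternative, placed 706 of 13301 genes with an adjusted p (5.31%) under 0.05, and edgeR with the replicate number as a blocking factor placed 117 (0.828%) there. The deletion removes only the floxed exons of Senp6, so transcripts of a deleted allele can still give reads. Senp6 had an RPKM of 10.8 and 18.0 in the controls and of 12.0 and 8.07 in the mutants. The groups overlapped, and the gene-level counts therefore do not check the genotype labels. Mutant replicate 2 was the 1 library with Xist expression, at 11354 reads against 2 to 5 in the others.

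Of the 10 genes, Tnfaip3 and Icam1 were higher in both mutants than in both controls, by 2.30-fold and 2.03-fold, and the other 8 had fold values between 0.856 and 1.10. None of the 10 passed an adjusted p of 0.05 in edgeR, where the share over all tested genes was 0%. In DESeq2 the 2 genes passed, both in the direction of a higher level in the mutant, against 3.3% of all genes with an adjusted p. At an unadjusted p under 0.05 in edgeR the count was also 2 of 10, against 15.6% of all tested genes. The median log2 fold change of the 10 genes was -0.021, beside 0.0097 over all tested genes. In the plot of RPKM by sample, the gap between the groups is wide for Tnfaip3, while for Icam1 it is narrower than the distance between the controls.

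**Figure D1:**
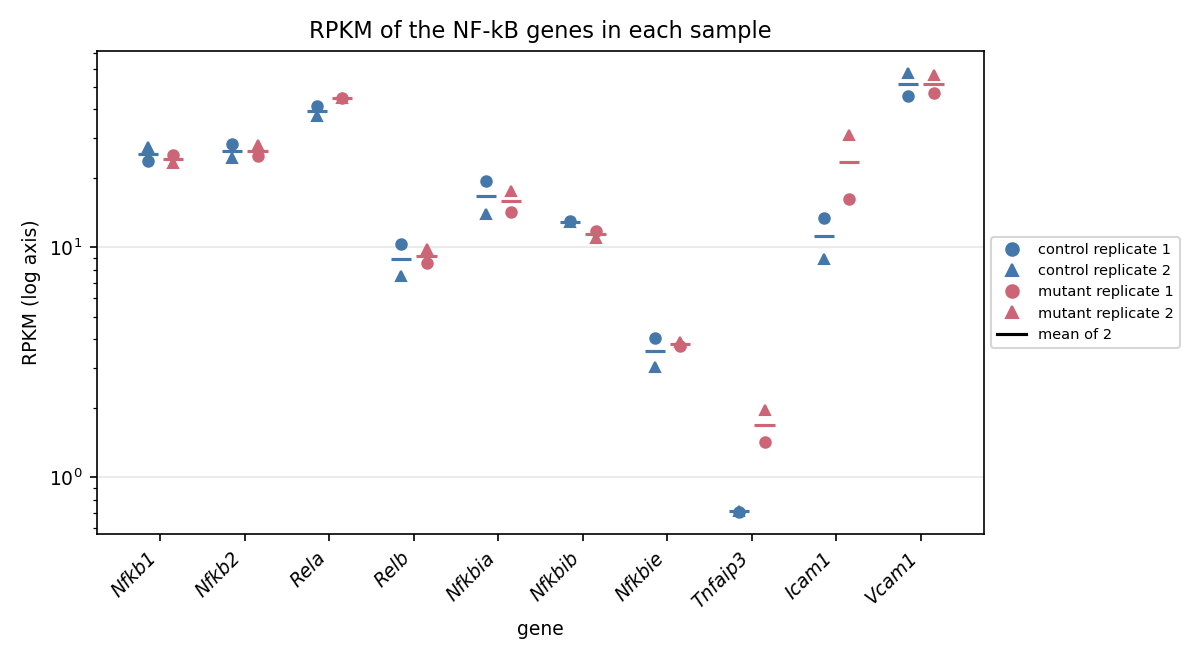
RPKM of the 10 NF-kB genes on a log axis, with 1 point for each sample (circles, replicate 1; triangles, replicate 2) and a bar for the mean of the 2 samples of a group. Icam1 (8.92 and 13.5 in controls, 16.3 and 30.9 in mutants) and Tnfaip3 (0.708 and 0.716 in controls, 1.42 and 1.96 in mutants) are the genes with separated groups and at least a 2-fold difference.

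Rela, which carries the transactivation domain of the classical dimer, had an RPKM of 41.3 and 37.1 in the controls and of 44.7 and 44.6 in the mutants. Both mutants were above both controls, but the gap between the groups was smaller than the gap between the controls. The fold value of Rela was 1.10, with a 95% interval from 0.886 to 1.38 (edgeR adjusted p = 0.669). Nfkb1, whose product is processed into the DNA-binding partner of RelA, had an RPKM of 23.9 and 27.3 in the controls and of 25.2 and 23.2 in the mutants. The groups overlapped, at a fold value of 0.921 (95% interval from 0.740 to 1.15).

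The subunits of the noncanonical branch showed the same overlap. Nfkb2, whose long product is cleaved on signals from receptors such as LTBR, had an RPKM of 28.1 and 24.5 in the controls and of 25.0 and 27.8 in the mutants. Its fold value was 0.971 (95% interval from 0.767 to 1.23). Relb, the partner of the cleaved NFKB2 protein, had an RPKM of 10.4 and 7.49 in the controls and of 8.58 and 9.85 in the mutants. Both mutants lay between the controls, with a log2 fold change of 0.00028 (SE 0.207). The interval from 0.709 to 1.41 on the fold scale does not show that its level was equal.

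The RPKM of the 4 subunits summed to 103.6 and 96.4 in the controls and to 103.4 and 105.4 in the mutants. Rela took 39.8% and 38.5% of that sum in the controls and 43.2% and 42.3% in the mutants. Relb took the smallest share, between 7.77% and 9.997% in the 4 samples. Rela thus was the most abundant subunit in each sample, and the order of Nfkb1 and Nfkb2 differed between samples.

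The IkB inhibitors did not separate the groups by more than the spread of the controls, with the exception of a small difference in Nfkbib. Nfkbia, which encodes IkBα and is the classical feedback gene of the pathway, had an RPKM of 19.5 and 13.9 in the controls and of 14.2 and 17.7 in the mutants. Both mutants lay between the controls, at a fold value of 0.923 with a 95% interval from 0.647 to 1.32 (edgeR adjusted p = 0.851). Nfkbib, which encodes the more slowly turned over IkBβ, had an RPKM of 13.1 and 12.9 in the controls and of 11.8 and 11.0 in the mutants. Both mutants were below both controls, by a fold value of 0.856 with a 95% interval from 0.674 to 1.09 (edgeR adjusted p = 0.524). The percent of the Nfkbib gene length covered by reads was 64.2 and 85.2 in the controls and 72.5 and 68.9 in the mutants, the widest range of the IkB genes. Nfkbie, which encodes IkBε, was the least abundant IkB gene, with an RPKM of 4.05 and 3.03 in the controls and of 3.73 and 3.89 in the mutants. Again the mutants lay between the controls. The ratio of the summed IkB RPKM to the summed subunit RPKM was 0.353 and 0.309 in the controls and 0.288 and 0.309 in the mutants, so that the second control and the second mutant were nearly equal.

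Tnfaip3 encodes a ubiquitin-editing enzyme that shuts down signalling upstream of IKK and is itself an NF-kB target. It was read 66 and 83 times in the controls and 195 and 246 times in the mutants. The RPKM was 0.708 and 0.716 in the controls and 1.42 and 1.96 in the mutants, or 0.712 ± 0.0056 against 1.69 ± 0.385 (mean ± SD, n = 2). The controls were nearly equal, and the lower mutant was about 2 times as high as either of them. The log2 fold change was 1.20 (SE 0.258, 95% interval from 0.58 to 1.82), with an adjusted p of 0.112 in edgeR and of 0.0232 in DESeq2. Over the alternatives that kept all 4 samples the adjusted p ranged from 0.0232 in DESeq2 to 0.146 with limma on log2(RPKM + 1). With each sample left out in turn, the log2 fold change stayed between 0.98 and 1.41. In these fits the single sample left in a group is assumed to vary like the other group. The percent of the Tnfaip3 gene length covered by reads was 65.9 and 74.8 in the controls and 80.8 and 88.1 in the mutants. At this depth the gene was the least abundant of the 10 in every sample, and Nfkbia was 27.6 and 19.4 times as abundant per length in the controls and 10.05 and 8.996 times in the mutants.

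Icam1 encodes an immunoglobulin-type adhesion molecule that binds leukocyte integrins. Its RPKM was 13.5 and 8.92 in the controls and 16.3 and 30.9 in the mutants, from 720, 592, 1284 and 2218 reads. Both mutants were above both controls, but mutant replicate 1 was closer to control replicate 1 than to the other mutant. The log2 fold change was 1.02 (SE 0.331, 95% interval from 0.23 to 1.82), with an adjusted p of 0.216 in edgeR and of 0.0337 in DESeq2. Of the alternatives that kept all 4 samples, only DESeq2 had an adjusted p under 0.05, and the others ran from 0.181 to 0.370. Without mutant replicate 2 the log2 fold change was 0.52, and without control replicate 2 it was 0.70, so its size depended on these libraries. Without mutant replicate 1 it was 1.40. Mutant replicate 2 was also the only library with Xist expression, and whether this bears on the level of Icam1 was not tested.

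Vcam1, the other adhesion target, encodes the ligand of the integrin α4β1. It was the most abundant of the 10 genes in each sample, with an RPKM of 45.6 and 57.5 in the controls and of 46.8 and 56.0 in the mutants. The groups overlapped almost completely, at a fold value of 0.969 with a 95% interval from 0.752 to 1.25 (edgeR adjusted p = 0.920). The ratio of Vcam1 to Icam1 in RPKM was 3.38 and 6.45 in the controls and 2.87 and 1.81 in the mutants. The ratio was lower in both mutants than in both controls, and this difference between the genes was not tested.

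**Figure D2:**
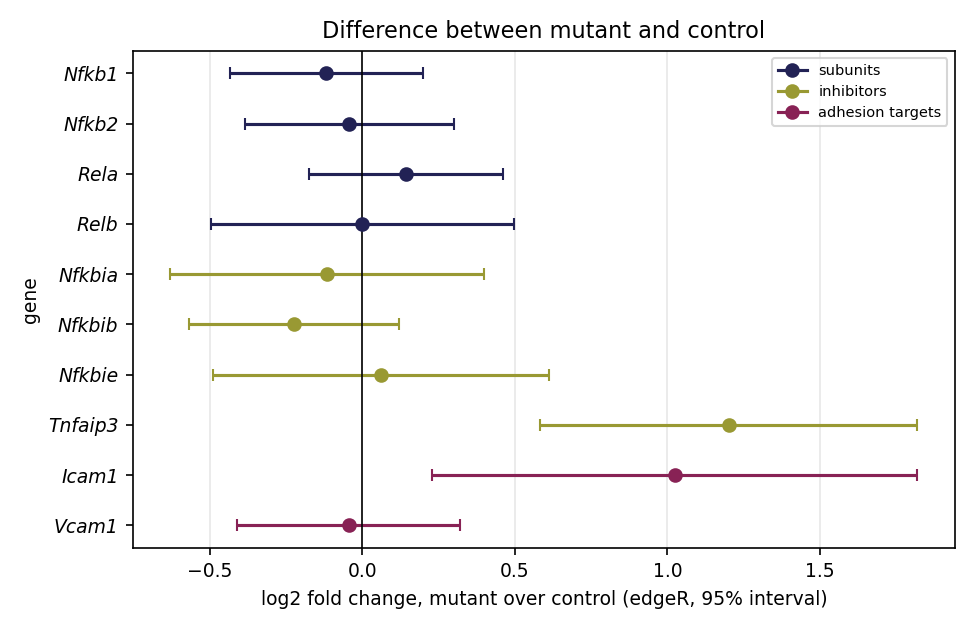
Log2 fold change of mutant over control for the 10 genes from edgeR, with 95% intervals (n = 2 for each group), coloured by role. The intervals of Tnfaip3 (0.58 to 1.82) and Icam1 (0.23 to 1.82) do not include 0, those of the other 8 genes include it, and none passed the adjusted p of 0.05.

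Each of 3 genes (Rela, Tnfaip3 and Icam1) had both mutants above both controls in RPKM, and 1 gene (Nfkbib) had both below. Over all tested genes the shares were 28.3% above and 19.2% below, so the counts of 3 and 1 in 10 are near the background. With single samples left out, the background itself was higher. The count above was 7 of 10 without control replicate 1, where 39.4% of all tested genes were above, and it was 3 or 4 of 10 without each of the others, where 35.8% to 51.5% were above. A fitted fold of at least 2 towards the mutant was found for 2 of the 10 genes and for 5.74% of all tested genes, and one towards the control for none of the 10 and for 2.6% of all. The smallest two-sided p of an exact permutation test with 2 samples against 2 is 0.3333, so none was run on single genes.

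Ordered by mean RPKM over the 4 samples, the genes ran from Vcam1 (51.5) and Rela (41.9) through Nfkb2 (26.3), Nfkb1 (24.9), Icam1 (17.4), Nfkbia (16.3), Nfkbib (12.2), Relb (9.07) and Nfkbie (3.67) to Tnfaip3 (1.20). The ranges over samples overlapped between Nfkb2 and Nfkb1, between Nfkb1 and Icam1, and between Icam1 and Nfkbia. The ranges of all other neighbours in this order did not overlap. The place of Icam1 differed between the groups, since it was below Nfkbia in both controls and above it in both mutants.

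The DNA upstream of the genes is shown for those whose feedback or target role is defined by kB sites. The 250 bases before the transcription start were taken from RefSeq on GRCm38.p6, which held 10 windows of 7 of the 10 genes. The kB consensus was searched on both strands, as was GGAAATTCC, the form of the site known from the ICAM1 promoter. This form falls just outside the consensus unless a G precedes it or a further C follows. The consensus was found in 7.25% of all 32851 windows of this length and GGAAATTCC in 0.286%. Of the 7 genes, 4 held a consensus match and 3 held GGAAATTCC in at least 1 window. The 3 include Icam1, the gene from which GGAAATTCC is known. The counts of matches are per gene and the shares per window, so they were not compared. Capitals mark these matches in the windows of 2 genes that differed by at least 2-fold (Icam1 and Tnfaip3) and 2 that did not (Nfkbia and Nfkb2, a textbook pair of NF-kB targets). Each is written 5′ to 3′ on the strand of the gene, for the most upstream start where there are several.
Icam1: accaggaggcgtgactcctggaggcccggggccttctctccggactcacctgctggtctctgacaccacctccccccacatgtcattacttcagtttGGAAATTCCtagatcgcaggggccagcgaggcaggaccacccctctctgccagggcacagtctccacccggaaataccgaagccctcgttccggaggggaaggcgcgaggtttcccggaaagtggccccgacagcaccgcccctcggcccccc
Tnfaip3: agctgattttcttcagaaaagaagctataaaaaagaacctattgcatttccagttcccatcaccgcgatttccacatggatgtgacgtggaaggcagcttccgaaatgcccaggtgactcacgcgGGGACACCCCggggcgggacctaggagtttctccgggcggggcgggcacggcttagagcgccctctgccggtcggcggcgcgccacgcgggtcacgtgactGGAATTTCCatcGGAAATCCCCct
Nfkbia: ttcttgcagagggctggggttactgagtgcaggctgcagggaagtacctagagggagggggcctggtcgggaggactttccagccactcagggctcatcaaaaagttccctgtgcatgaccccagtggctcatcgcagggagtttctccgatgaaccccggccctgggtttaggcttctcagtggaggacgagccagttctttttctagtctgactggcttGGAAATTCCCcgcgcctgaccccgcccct
Nfkb2: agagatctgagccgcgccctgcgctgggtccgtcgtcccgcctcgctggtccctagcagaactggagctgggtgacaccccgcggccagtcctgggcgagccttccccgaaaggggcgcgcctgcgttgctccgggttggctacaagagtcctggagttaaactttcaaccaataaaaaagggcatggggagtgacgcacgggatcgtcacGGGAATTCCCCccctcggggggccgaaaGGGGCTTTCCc
The Icam1 window lies at chr9:21015690-21015939 on the plus strand, and its GGAAATTCC begins 153 bases before the start. The Tnfaip3 window lies at chr10:19015411-19015660 on the minus strand, and it holds 2 consensus matches, beginning 125 and 12 bases before the start, and GGAATTTCC, the other strand of the shorter site, at 24 bases. The Nfkbia window lies at chr12:55492648-55492897 on the minus strand, where GGAAATTCCC at 29 bases meets both motifs. The Nfkb2 window lies at chr19:46304487-46304736 on the plus strand and has 3 consensus matches, of which those at 39 and 38 bases overlap and the last is at 11 bases. The windows of Nfkb2 at its other starts each held 1 consensus match, that of Tnfaip3 at its other start held none, Nfkbie held 1, and Rela and Nfkbib held neither motif. Matches were thus present both in genes with a higher level in the mutants and in genes without one, and a match of letters does not show that a factor binds there.

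The rest of the pathway was followed in 91 further genes, of which 89 had a read and 76 could be tested. None passed an adjusted p of 0.05 in edgeR in either direction, while 14 of the 76 had an unadjusted p under 0.05, beside 15.6% of all tested genes. DESeq2 called 6 as higher and 4 as lower, beside 3.3% and 2.01% of all genes with an adjusted p. Both mutants were above both controls for 28 of the 76 and below them for 17, beside 28.3% and 19.2% of all tested genes. The median log2 fold change of the 76 was 0.018.

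The genes of the classical ligands were at the limit of detection. Tnf had 1 read in each control and 0 in each mutant, and Il1b had no read in any sample. The main TNF receptor gene, Tnfrsf1a, was abundant, with an RPKM of 143 and 140.2 in the controls and of 130.9 and 128.7 in the mutants. Of the 14 ligand and receptor genes that could be tested, 1 differed by at least 2-fold with separated groups. This was Tnfrsf11a, which encodes RANK, with an RPKM of 0.265 and 0.472 in the controls and of 1.27 and 1.76 in the mutants. Its log2 fold change was 1.98 (SE 0.340), with an adjusted p of 0.0873 in edgeR and of 0.00024 in DESeq2. The gene thus was low in all samples and higher in both mutants.

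Between receptor and inhibitor, none of the 19 adaptor genes and none of the 12 genes for kinases and IkB degradation had an unadjusted p under 0.05 in edgeR or an adjusted p under 0.05 in DESeq2. Ikbkg, which encodes NEMO, had an RPKM of 3.63 and 4.17 in the controls and of 4.50 and 6.54 in the mutants (log2 fold change 0.46, 95% interval from -0.012 to 0.92). It is named for its role as a SENP6 substrate, after its values were seen. The 4 other Rel and IkB genes (Rel, Nfkbid, Bcl3 and Nfkbiz) had both mutants above both controls, as did 28.3% of all tested genes. Rel, Nfkbid and Bcl3 had adjusted p values of 0.650, 0.742 and 0.684 in edgeR, and 1 gene, Nfkbiz, differed by at least 2-fold. Nfkbiz encodes a nuclear IkB protein that is induced by NF-kB and helps it to activate secondary genes. It had an RPKM of 2.52 and 4.29 in the controls and of 5.83 and 8.63 in the mutants, with a log2 fold change of 1.04 (SE 0.283). The adjusted p was 0.160 in edgeR and 0.0175 in DESeq2. None of the other brakes of the pathway differed by 2-fold, and their median log2 fold change over 10 tested genes was 0.095.

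Other NF-kB targets differed in both directions. Of 17 tested, 5 had both mutants above both controls and 6 had both below, beside the same 28.3% and 19.2%, with a median log2 fold change of -0.14. Il6, an inflammatory cytokine gene, was read 7 and 17 times in the controls and 66 and 121 times in the mutants, with a log2 fold change of 2.62 (SE 0.512, edgeR adjusted p = 0.0965). The control counts are low, and the RPKM was 0.306 and 0.598 against 1.96 and 3.94. Ptgs2, which encodes the inducible cyclooxygenase, had an RPKM of 2.59 and 8.43 in the controls and of 20.1 and 31.15 in the mutants (log2 fold change 2.18, edgeR adjusted p = 0.122). Its controls differed from each other by more than 3 times, and its adjusted p was 0.0880 in DESeq2 and 0.0369 with the replicate block, under which 0.595% of all genes were called higher and 0.234% lower in the mutant. Lif, a cytokine gene of the IL-6 family, had an RPKM of 0.356 and 0.629 against 1.76 and 2.64 (log2 fold change 2.10, edgeR adjusted p = 0.0852, or 0.0432 with the block). Cxcl10, which encodes a chemokine that is also induced by interferon, had an RPKM of 1.95 and 1.74 against 3.20 and 7.90 (log2 fold change 1.53, edgeR adjusted p = 0.181). Cfb, which encodes complement factor B, went the other way with an RPKM of 9.94 and 3.26 against 1.61 and 2.01 (log2 fold change -1.92, edgeR adjusted p = 0.155). In DESeq2, with 3.3% of all genes called higher and 2.01% lower, the adjusted p was 0.0035 for Il6 and 4.5e-05 for Lif. It was 0.047 for Cxcl10 and 0.0014 for Cfb. For each of Il6, Ptgs2, Lif, Cxcl10 and Cfb the groups did not overlap. Cxcl5 and Lcn2 met the same condition but fell outside the limit of 5 genes, and they are named after their values were seen. Cxcl5, a neutrophil chemokine gene, had an RPKM of 26.8 and 35.4 in the controls and of 11.9 and 15.5 in the mutants (log2 fold change -1.22, edgeR adjusted p = 0.0833, or 0.0426 with the block, DESeq2 adjusted p = 5.42e-06). Lcn2, which encodes an iron-carrier-binding protein, had 26 and 18 reads in the controls and 6 and 18 in the mutants, and its adjusted p in edgeR was 0.422.

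Of the adhesion genes beyond Icam1 and Vcam1, 13 were tested in a list of 20. Of these, 7 had both mutants above both controls, 2 had both below, beside 28.3% and 19.2% of all tested genes, and the median log2 fold change was 0.34. None passed in edgeR, and 5 were higher in the mutant in DESeq2, beside 3.3% of all. Mcam, a cell adhesion molecule of vascular and mesenchymal cells, had an RPKM of 4.92 and 9.50 in the controls and of 27.6 and 33.1 in the mutants. Its log2 fold change was 2.03 (SE 0.286), with an adjusted p of 0.0789 in edgeR and of 0.0365 with the replicate block. Jam2, a junctional adhesion molecule, had an RPKM of 1.20 and 1.76 in the controls and of 3.77 and 5.62 in the mutants (log2 fold change 1.62, edgeR adjusted p = 0.0833, or 0.0397 with the block). Cd44, which encodes the hyaluronan receptor, had an RPKM of 27.5 and 60.9 against 88.3 and 108.7 (log2 fold change 1.12, edgeR adjusted p = 0.185). The selectin gene Selp had 4 and 13 reads in the controls and 49 and 132 in the mutants, a log2 fold change of 3.08 (SE 0.685, edgeR adjusted p = 0.115, or 0.0463 with the block). In DESeq2 the adjusted p was 3.1e-10 for Mcam, 1.1e-05 for Jam2, 0.0062 for Cd44 and 0.0031 for Selp. Itgam, which encodes a leukocyte integrin chain that binds ICAM1, stayed at or below 25 reads in each sample. Both mutants were below both controls for Itgam, and its adjusted p in DESeq2 was 0.644.

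**Figure D3:**
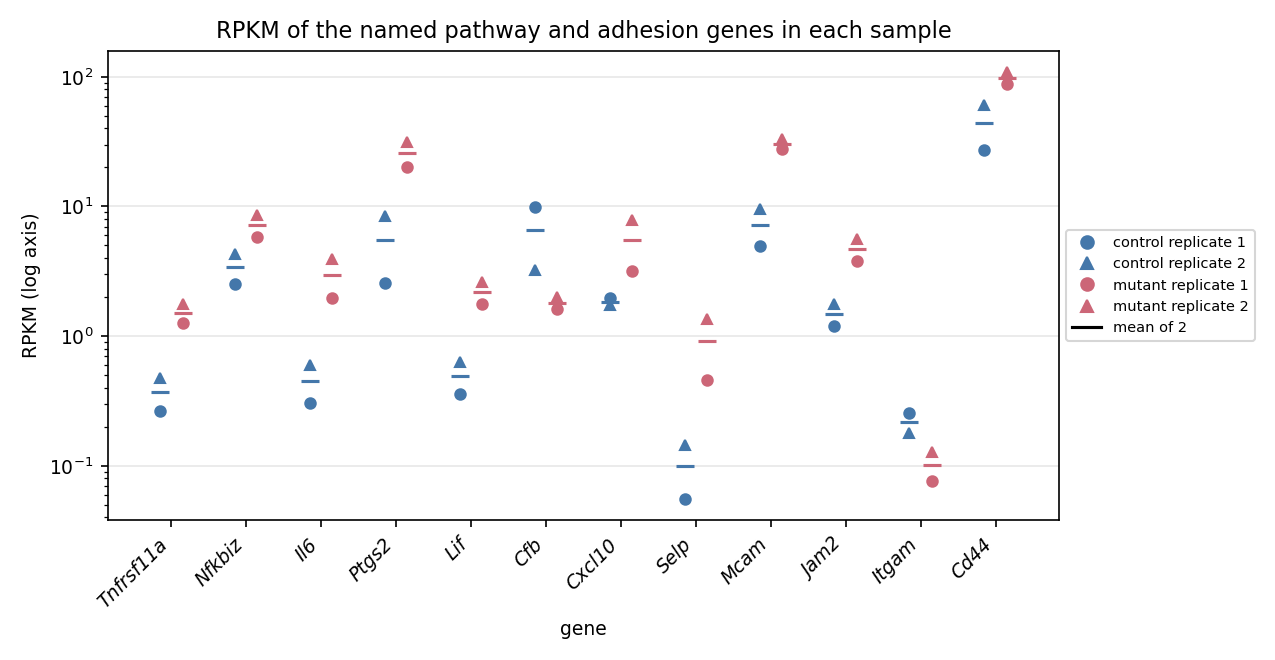
RPKM of the 12 pathway and adhesion genes outside the 10 that had separated groups and at least a 2-fold difference (at most 5 per list), on a log axis, with 1 point for each sample and a bar for the mean of 2. The mutants lie above the controls for 10 genes and below them for Cfb and Itgam, and none passed in edgeR.

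The genes whose profile over the 4 samples was most like that of Icam1 were Serpine2, Usp18, Cacna1i, Negr1 and Dll1. Likeness was measured as the Euclidean distance of mean-centred log2 CPM over 4 samples, among 13180 other genes with at least 10 counts in every sample, and was between 0.072 and 0.17 for these genes. Serpine2, a protease inhibitor gene, had an RPKM of 248.1 and 161.8 in the controls and of 295.5 and 532 in the mutants. Usp18, an interferon-induced gene, had 5.67 and 3.85 against 6.37 and 13.5. By their choice on this distance, these genes share the order of the replicates of Icam1. Control replicate 1 was above control replicate 2, and mutant replicate 2 was above mutant replicate 1. The genes closest to Vcam1 were Rpl9, Ndufaf1, Zfp386, Nsmce1 and Snrnp48, at distances from 0.019 to 0.042. By the same choice they are about as flat as Vcam1 itself, which spanned 0.29 on the log2 scale. Over 4 samples of 2 groups such likeness is only a description.

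The cultures were checked against markers of cartilage and of other cells. All 8 chondrocyte markers were read in each sample and had both mutants below both controls, beside 19.2% of all tested genes. Their summed RPKM was 925.6 and 926.7 in the controls and 494.1 and 613.2 in the mutants. Col2a1, the main cartilage collagen, had an RPKM between 333.5 and 659.2. Striated muscle markers went the other way in 7 of 8 genes, beside 28.3% of all tested genes. Their summed RPKM was 78.7 and 27.8 in the controls and 139.8 and 159.6 in the mutants. In bulk samples fewer cells of a type and less RNA per cell cannot be told apart. The leukocyte markers summed to 20.1 and 18.7 in the controls and to 10.4 and 15.8 in the mutants, of which Lyz2 gave the most in the controls (11.1 and 7.85), and the defining marker Ptprc had 3 to 6 reads in a sample. The endothelial markers summed to between 0.962 and 1.75 in the 4 samples, with Pecam1 at 6 to 22 reads and Cdh5 at 6 to 32. The leukocyte sum was lower in both mutants than in both controls, and the endothelial sums overlapped. Of the 6 leukocyte genes tested, 4 had both mutants below both controls and 1 had both above. Of the 5 endothelial genes tested, 1 was below and 1 above. The shares over all tested genes were 19.2% below and 28.3% above. Among those below, Lyz2 had a log2 fold change of -1.43 (edgeR adjusted p = 0.135). For Tek of the endothelial list it was -1.74 (edgeR adjusted p = 0.143). The 2 genes above were Kdr and Cd14. Kdr, a VEGF receptor gene of the endothelial list, had an RPKM of 0.131 and 0.238 in the controls and of 0.390 and 0.570 in the mutants (log2 fold change 1.32, edgeR adjusted p = 0.201). Cd14, a monocyte receptor gene of the leukocyte list, had 2.225 and 2.965 against 3.25 and 4.56 (log2 fold change 0.54, edgeR adjusted p = 0.416). The osteoblast markers summed to 186 and 83.1 in the controls and to 31.5 and 52.6 in the mutants. The fibroblast and perichondrium markers summed to 9250 and 6534 in the controls and to 6585 and 4877 in the mutants, and most of each sum was Col1a1 (3311 to 7253). In this list 3 genes had both mutants below both controls and 2 had both above, beside 19.2% and 28.3% of all tested genes. Thy1, a mesenchymal surface marker gene, was above, with an RPKM of 219.5 and 341.1 in the controls and of 608.8 and 831.7 in the mutants. Its log2 fold change was 1.32, with an adjusted p of 0.0885 in edgeR, 2.59e-06 in DESeq2 and 0.0365 with the replicate block. Prrx1 was also above, with 97.2 and 97.6 against 113.3 and 115.0 (edgeR adjusted p = 0.528). The part of the differences in muscle, cartilage, osteoblast, fibroblast, leukocyte and endothelial markers in the levels of Icam1 and Tnfaip3 was not tested.

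**Figure D4:**
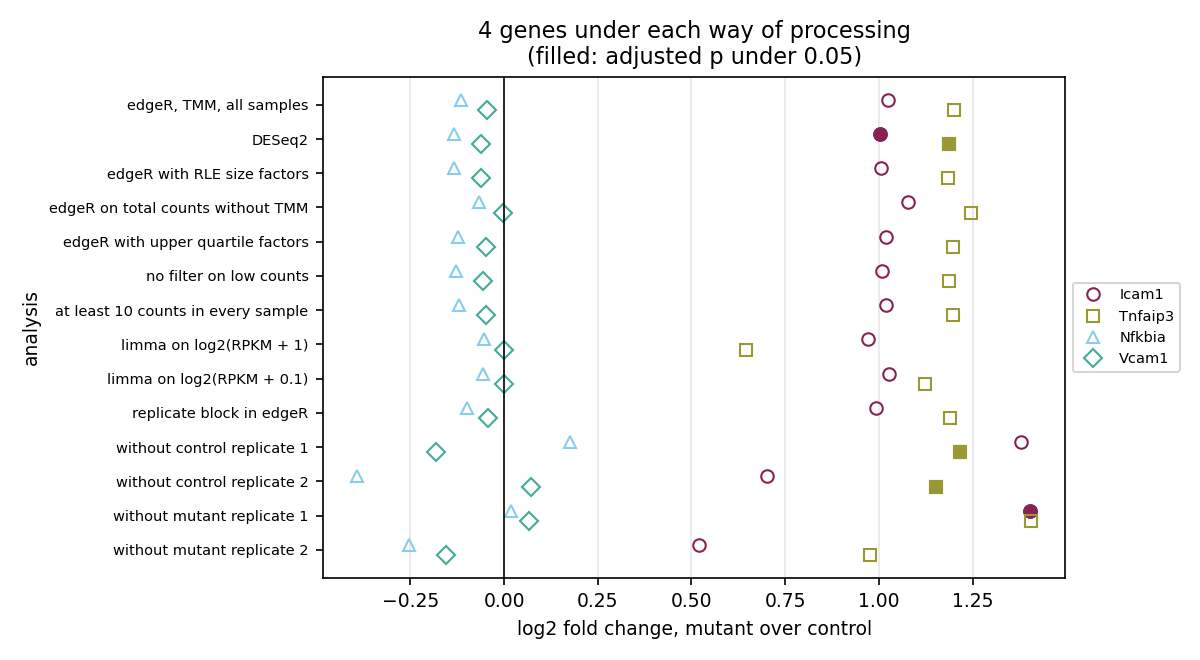
Log2 fold change of Icam1, Tnfaip3, Nfkbia and Vcam1 (horizontal axis) under the reported analysis and the 13 alternatives (vertical axis), with filled symbols where the adjusted p was under 0.05. Icam1 and Tnfaip3 stay above 0 throughout, from 0.52 to 1.40 and from 0.64 to 1.41, while Nfkbia and Vcam1 fall on both sides of 0 when single samples are left out.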

How the data were processed

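RNA of 2 mutant and 2 control cultures was sequenced by a service. Per sample, the files deposited by the authors give raw read counts of genes, their RPKM, and the coverage of each gene as a percent of its length. Each RPKM equals the count scaled by the deposited gene length and the sum of counts. The submitters' processing notes name SAMtools and the build mm9. The aligner, the counting tool, the strand setting and the annotation are not given in the sources used here, and reads of overlapping genes may be shared. Genes without a read are not listed in a sample and were given a count of 0. Coverage was not tested.

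The counts were tested with edgeR 4.0.16 (R 4.3.3) with TMM normalization and robust quasi-likelihood estimation, over genes that reached 10 counts in 2 or more samples. Standard errors and 95% intervals were derived from the F statistic. In the shallowest library, 10 reads of a 2 kb gene make an RPKM of 0.238. The TMM factors were between 0.966 and 1.03. The alternatives were DESeq2 1.42.0, 3 other scalings, 2 other filters, limma 3.58.1 on log2(RPKM + 1) and log2(RPKM + 0.1), a block for the replicate number, and the omission of each sample. The scripts were tested on simulated data. The replicate pairs differed by far more than sampling noise (chi-square over degrees of freedom of 48.6 in controls and 23.7 in mutants), so each library was counted as its own sample.

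The genes, the lists and the tests were chosen with earlier results of these data known. List genes are named where the groups were separated and the log2 fold change was at least 1 in size, at most 5 per list. Of the 154 list genes beside the 10, 3 were matched through Entrez identifiers and 3 had no read. Promoter windows came from RefSeq on GRCm38.p6, while the counts rest on mm9, and no coordinate was converted.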

Additional observations from a re-analysis of the deposited data

How the results depend on the processing

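Genes past the adjusted p of 0.05 numbered 0 in edgeR, 706 with DESeq2, 8 on total counts without TMM, 286 without a filter on low counts and 117 with a block for the replicate number (84 higher and 33 lower in the mutant), and between 105, where mutant replicate 2 was left out, and 2740, where control replicate 2 was. Of the 10 NF-kB genes, 2 passed with DESeq2 (Tnfaip3 and Icam1), beside 5.31% of all genes with an adjusted p. With the block 0 passed, beside 0.828% of all tested genes. The replicate numbers were not taken as pairs: replicate 1 minus replicate 2 in the controls correlated at -0.042 with the same difference in the mutants over 14123 genes, and the block changed no call among the 10 genes. The count of genes with both mutants above both controls was 3 in RPKM and in CPM and ranged from 3 to 7 with samples left out, the highest without control replicate 1, where 39.4% of all tested genes were above.

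Nfkb1, Rela, Nfkbib, Tnfaip3, Icam1 and Senp6 kept their direction under all 13 alternatives. Relb, at 0.00028 on the log2 scale, turned to -0.018 with DESeq2, -0.017 with RLE factors, -0.0068 with upper quartile factors, -0.013 without a filter and -0.0039 with at least 10 counts in every sample. Nfkb2 turned to 0.0036 on total counts and to 0.0041 and 0.0043 with limma on log2(RPKM + 1) and log2(RPKM + 0.1). These reversals are within the standard errors. With each sample left out, the log2 fold change ranged from -0.19 to 0.086 for Nfkb2, from -0.27 to 0.28 for Relb, from -0.39 to 0.18 for Nfkbia, from -0.19 to 0.31 for Nfkbie and from -0.18 to 0.072 for Vcam1. The cause of the differences between tools was not tested. On the log2(RPKM + 1) scale the change of Tnfaip3 was 0.64, since the pseudocount is close to its level. No scaling moved the median of all genes by over 0.1 on the log2 scale. Depth limits Tnfaip3 most, with 66 to 246 reads in a sample.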

Other observations

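The receptor and the antagonist of IL-1, which were picked after their values were seen, were both lower in the mutants. Il1r1, which encodes the signalling receptor of IL-1 upstream of NF-kB, had an RPKM of 64.6 and 65.6 in the controls and of 42.0 and 35.0 in the mutants. Il1rn, which encodes the secreted antagonist of that receptor, had an RPKM of 85.5 and 78.8 in the controls and of 45.4 and 46.4 in the mutants. The log2 fold changes were -0.80 and -0.88 (adjusted p of 0.0901 and 0.0789 in edgeR, and of 0.00022 and 5.56e-06 in DESeq2), and the groups did not overlap for either gene.

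Tnfrsf12a, which encodes the receptor of the cytokine TWEAK and was also picked after its values were seen, had an RPKM of 45.4 and 62.4 in the controls and of 82.3 and 107 in the mutants, a log2 fold change of 0.77 (edgeR adjusted p = 0.135, DESeq2 adjusted p = 0.0122). The gene of its ligand, Tnfsf12, had an RPKM between 10.7 and 11.9 in the 4 samples.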
